A study of Mus musculus with 24 samples.

Results

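The genes described here are 10 of the 22367 protein-coding genes annotated on mouse chromosomes 1 to 19, X and Y. They were picked by name for their roles in young neurons: the SoxC transcription factor genes Sox4, Sox11 and Sox12, the microtubule regulators Apc2, Dcx and Map1b, the tubulins Tubb3 and Tubb2b, and the growth cone proteins Gap43 and Dpysl3. The names were proposed with earlier results of these data known. The study asked how open chromatin changes as cortical pyramidal neurons mature, using ATAC-seq, in which a transposase cuts accessible DNA so that reads pile up there as peaks.

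Upper-layer callosal neurons (Cux2 CPNs) came from Cux2-CreERT2:Ai14 mice and layer 6 corticothalamic neurons (Tle4 CThPNs) from Tle4-2A-CreERT2:Ai14 mice, labelled as C57BL/6 and kept, by the methods, on a mixed C57BL/6J background. In every group the dams received 4-hydroxytamoxifen late in pregnancy, which switches on the tdTomato reporter in cells that express the driver gene at that time, and tdTomato-positive cells were sorted from somatosensory and motor cortex. Each library was a pool of animals of both sexes from 2 litters, and by the study's methods the Cux2 line also labels some interneurons. Each class was taken at 6 ages with 2 replicates, at E18.5, P1, P3 and P7 (early) and at P21 and P48 (late). The authors pooled the replicates of a group into 1 peak list, so the 12 lists carry no replicate error, the files do not give the read depth behind each list (the methods name a single approximate depth for all libraries), and the ages are the only repeats. Peak numbers ranged from 6540, in the P21 list of Tle4 CThPNs, to 45649, in the P48 list of Cux2 CPNs, and a gene therefore had more chances of a peak in some lists than in others. In sorted populations, a site open in fewer cells and a site less open in each cell cannot be told apart.

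SoxC factors are high-mobility-group proteins that act late in neuronal commitment and drive genes of immature neurons, among them cytoskeletal genes. Doublecortin (Dcx) and Map1b bind and stabilize microtubules in migrating neurons and growing axons, Apc2 is a neural relative of the Apc protein that binds microtubules, and Tubb3 and Tubb2b are beta-tubulins of young neurons. Gap43 is a membrane protein of the growth cone, and Dpysl3 (CRMP4) is a collapsin response mediator protein that links guidance signals to the cytoskeleton.

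Peaks were assigned to a gene by position in the mm9 build (NCBIM37). A promoter peak overlapped 1 kb on either side of an annotated transcription start site (TSS), a gene-body peak overlapped the annotated gene, and a nearby peak lay within 100 kb of a TSS. Fold enrichment is the authors' ratio of signal over background at the peak summit, and the percentile of a fold is its place among all folds of its own list.

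Across the promoters, 6 members had a peak in all 8 early lists (Sox4, Sox11, Map1b, Tubb3, Tubb2b and Dpysl3), a pattern shared by 45.0% of the 12109 genes with a promoter peak in any list. In the late lists, Sox11 alone among the members had a peak in all 4, against 26.2% of these genes, and 8 members had none in either late Tle4 list, against 57.0%. A larger share of early than of late lists held a promoter peak for 7 members (59.1% of genes), and the reverse held for Dcx and Gap43 (12.6% of genes). The plot of promoter folds shows these lists side by side.

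**Figure D1:**
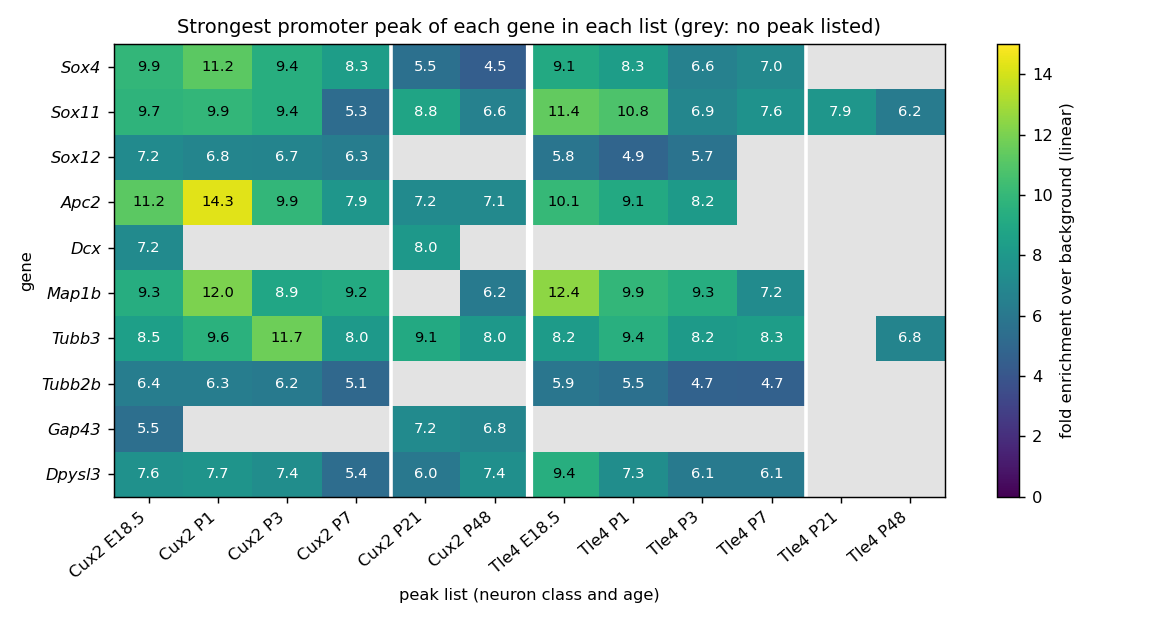
Fold enrichment (linear scale, color and printed value) of the strongest promoter peak of each of the 10 genes (vertical axis) in each of the 12 peak lists (horizontal axis), with grey where no peak was listed and white lines between early and late lists and between classes. Tubb2b has values in all 8 early lists and in no late list, Sox11 has values in all 12, and the Tle4 P21 column holds Sox11 only.

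Of the SoxC genes, Sox4 (chr13:29040788-29045582, minus strand) had a promoter peak in all 8 early lists and in both late Cux2 lists, and none in the late Tle4 lists. The fold in Cux2 lists was 9.94, 11.2, 9.43 and 8.34 at the early ages and 5.53 and 4.50 at P21 and P48. In Tle4 lists it was 9.12, 8.33, 6.61 and 7.05 at the early ages. Every late Cux2 fold lay below every early one of that class. By -log10 p the Sox4 promoter peak ranked 2085th to 2506th in the early Cux2 lists, and 28598th of 37427 and 37372nd of 45644 in the late ones.

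Sox11 (chr12:28025562-28027574, minus strand) had a promoter peak in every list, with folds of 9.74, 9.91, 9.39, 5.30, 8.76 and 6.62 in Cux2 lists from E18.5 to P48. The Tle4 folds were 11.4, 10.8, 6.86, 7.63, 7.86 and 6.25 over the same ages. Late and early folds overlapped in both classes apart from the lowest Tle4 value, at P48. Sox12 (chr2:152219347-152223782, minus strand) had a promoter peak in the 4 early Cux2 lists, with folds of 7.15, 6.83, 6.75 and 6.33, and in the Tle4 lists at E18.5, P1 and P3, with folds of 5.81, 4.92 and 5.71. No late list held a Sox12 promoter peak. These folds lay low in their lists, between percentiles 0.0718 and 9.48. By -log10 p the Sox12 promoter peak ranked from 5831st of 33991 (Cux2 E18.5) to 16854th of 19508 (Tle4 P1).

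The 250 bases before the RefSeq start site of these genes are shown because their promoter peaks behaved differently from one another. RefSeq promoters (GRCm38.p6) were held for 7 of the 10 members, and Tubb2b, Gap43 and Dpysl3 had none. The bases were located by exact match in NCBIM37, and capitals mark GGGCGG (the GC box of Sp factors) and CCAAT (the box bound by NF-Y) on either strand.
Sox4 promoter (chr13:29045569-29045818, minus strand): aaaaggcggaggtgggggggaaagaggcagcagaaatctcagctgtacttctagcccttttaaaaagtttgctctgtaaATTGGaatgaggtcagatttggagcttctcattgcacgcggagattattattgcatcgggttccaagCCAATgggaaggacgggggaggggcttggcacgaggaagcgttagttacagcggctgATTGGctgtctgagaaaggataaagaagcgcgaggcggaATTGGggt
Sox11 promoter (chr12:28027584-28027833, minus strand): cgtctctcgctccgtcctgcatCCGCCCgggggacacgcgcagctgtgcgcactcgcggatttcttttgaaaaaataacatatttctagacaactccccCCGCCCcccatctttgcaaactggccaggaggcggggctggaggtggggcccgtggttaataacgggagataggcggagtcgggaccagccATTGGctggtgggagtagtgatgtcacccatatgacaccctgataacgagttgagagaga
Sox12 promoter (chr2:152223783-152224032, minus strand): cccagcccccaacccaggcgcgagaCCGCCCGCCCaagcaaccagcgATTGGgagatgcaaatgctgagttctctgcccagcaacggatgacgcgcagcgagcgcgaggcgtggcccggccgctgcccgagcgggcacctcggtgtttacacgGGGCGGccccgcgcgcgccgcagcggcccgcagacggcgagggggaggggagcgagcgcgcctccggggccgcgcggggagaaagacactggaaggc
The Sox4 window held 4 CCAAT boxes and no GGGCGG, with a GC content of 50.8%. The Sox11 window held 1 CCAAT and 2 GGGCGG at 58% GC, and the Sox12 window 1 CCAAT and 3 GGGCGG at 74.4% GC. Among 32851 RefSeq promoter windows of that length, CCAAT occurred in 33.8% and GGGCGG in 32.7%. A match of letters is a description and not a bound site.

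Away from its promoter, Sox4 had 7 regions within 100 kb, where a region is the merged span of overlapping peaks of the 12 lists. No other protein-coding gene lies within 100 kb of Sox4 or of Sox11. Intergenic here means outside annotated protein-coding genes. One intergenic Sox4 region, 95.1 kb downstream (chr13:28948887-28949789), was listed in all 8 early lists and in no late list, with folds of 13.8, 10.9, 7.97 and 8.57 in Cux2 and 13.0, 10.4, 7.31 and 8.14 in Tle4 lists. Another region, 69.5 kb upstream (chr13:29115101-29116022), outside protein-coding genes but over an exon of an annotated lincRNA, was absent at E18.5 in both classes and at P1 in Cux2 CPNs. Its folds were 9.77, 11.64, 17.5 and 16.7 in Cux2 lists at P3, P7, P21 and P48, and 12.4, 8.37 and 9.45 in Tle4 lists at P1, P3 and P7. The Cux2 values at P21 and P48 stood at percentiles 98.2 and 97.9 of their lists, while the Sox4 promoter peak of the same lists stood at percentiles 0.761 and 0.535.

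Sox11 showed a similar arrangement. A region 74.6 kb upstream (chr12:28102206-28103250) was listed in Cux2 CPNs at E18.5, P7, P21 and P48, with folds of 7.72, 10.6, 19.8 and 17.96, and in all 4 early Tle4 lists, with folds of 10.5, 13.7, 11.7 and 10.6. It was absent from both late Tle4 lists. Its Cux2 folds at P21 and P48 stood at percentiles 99.6 and 99, and the promoter peak of these lists at percentiles 32.3 and 12.2. A region 20.7 kb upstream (chr12:28048317-28049173) was listed in the 4 early Cux2 lists only, with folds of 9.65, 10.3, 10.7 and 9.49. The map of Sox4 and Sox11 places these regions along the genes.

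**Figure D2:**
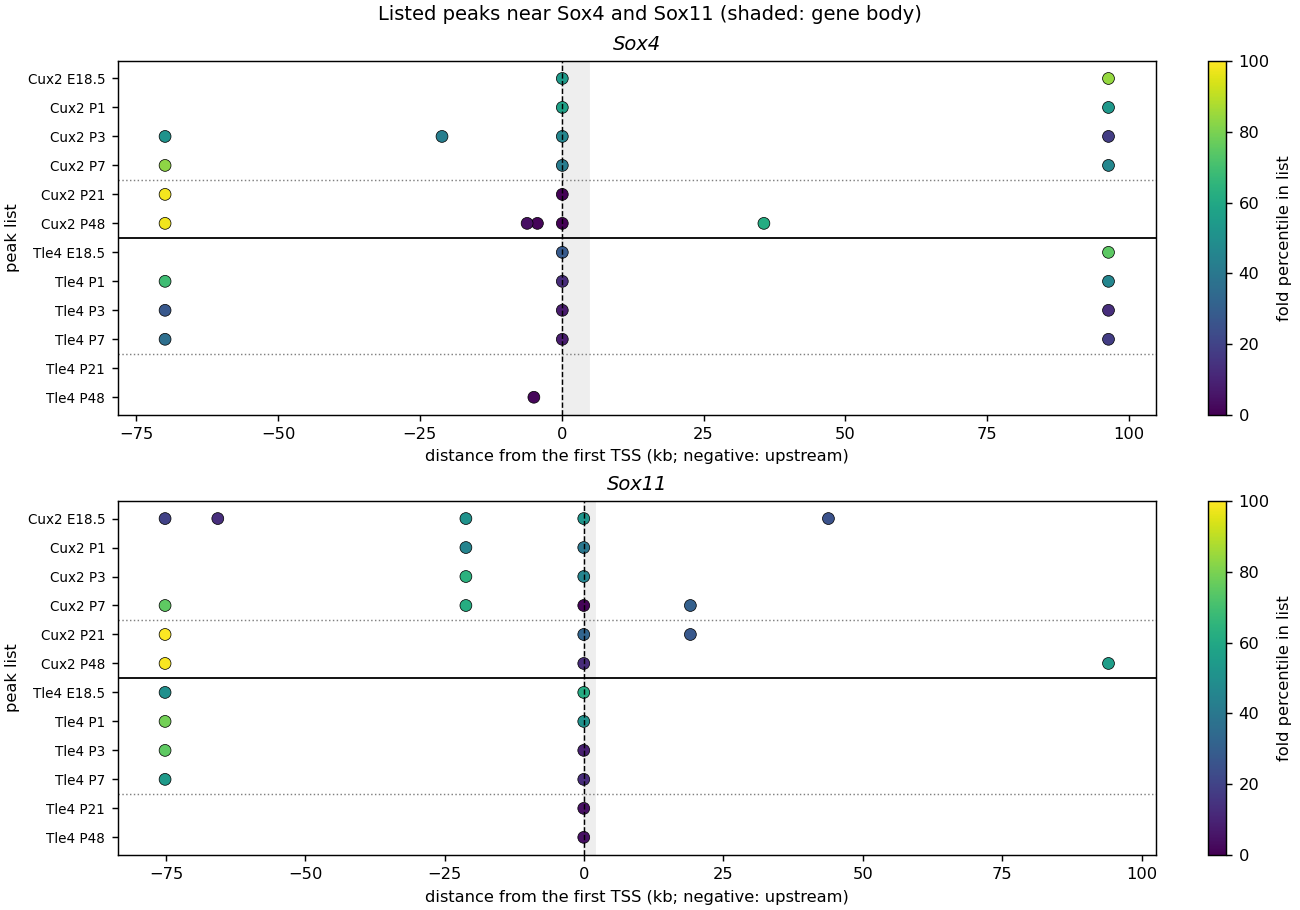
Each point is a listed peak near Sox4 or Sox11, placed by its distance from the first TSS in kb (horizontal axis, negative upstream) and its peak list (vertical axis), and colored by the percentile of its fold within that list. The column of points 95.1 kb downstream of Sox4 stops at P7 in both classes, and the late Cux2 points 69.5 kb upstream of Sox4 and 74.6 kb upstream of Sox11 are near the top of their lists.

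The central 300 bases of these regions are given from NCBIM37, since they are the distal sites on which the SoxC comparison turns. Capitals mark, on either strand, CAGATG (an E-box of proneural factors), TAATTA (a homeodomain core) and TGANTCA (the AP-1 site). The Sox11 region 20.7 kb upstream was chosen after its values were seen, as was the Sox4 region 69.5 kb upstream, whose window overlaps an annotated exon and is not printed.
Sox4 95.1 kb downstream (chr13:28949056-28949355, plus strand): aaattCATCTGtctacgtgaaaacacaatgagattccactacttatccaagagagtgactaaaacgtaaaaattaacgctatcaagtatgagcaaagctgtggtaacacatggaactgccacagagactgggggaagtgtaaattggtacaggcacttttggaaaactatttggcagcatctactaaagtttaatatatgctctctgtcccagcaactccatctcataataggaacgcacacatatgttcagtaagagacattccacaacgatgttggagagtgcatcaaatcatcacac
Sox11 74.6 kb upstream (chr12:28102596-28102895, plus strand): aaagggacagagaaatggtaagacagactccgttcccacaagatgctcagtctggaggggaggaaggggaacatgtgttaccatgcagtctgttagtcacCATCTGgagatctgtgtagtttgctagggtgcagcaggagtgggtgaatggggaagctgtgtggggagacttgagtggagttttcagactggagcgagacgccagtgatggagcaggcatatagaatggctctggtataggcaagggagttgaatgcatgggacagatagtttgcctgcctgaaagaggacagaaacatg
Sox11 20.7 kb upstream (chr12:28048631-28048930, plus strand): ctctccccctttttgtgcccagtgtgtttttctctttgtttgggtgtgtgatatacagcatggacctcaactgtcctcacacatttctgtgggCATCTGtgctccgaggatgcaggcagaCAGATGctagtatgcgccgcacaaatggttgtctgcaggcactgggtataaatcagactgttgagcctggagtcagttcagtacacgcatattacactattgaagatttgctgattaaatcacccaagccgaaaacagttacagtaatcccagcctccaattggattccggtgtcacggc
Each of the 3 windows held CAGATG, once in the Sox4 window and once and 2 times in the Sox11 windows, and none held the other marked motifs. CAGATG occurred in 34.5% of windows of this length at the 71589 regions outside promoters.

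Sox12 sits among 9 other protein-coding genes within its window. Its strongest nearby region, 7.7 kb upstream and intergenic (chr2:152231476-152232453), was listed in all 12 lists, with folds from 10.9 to 17.2. A gene-body region 1.4 kb downstream of the TSS (chr2:152221815-152222386) was listed in the same 7 lists as the Sox12 promoter peak, with folds from 5.09 to 8.64, and in no late list.

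Among the microtubule regulators, Apc2 (chr10:79758722-79781008, plus strand) has 6 annotated TSSs, and its promoter peaks fell on different ones by stage. The region chr10:79763281-79764010 was listed in the 4 early Cux2 lists, with folds of 11.2, 14.3, 9.95 and 7.86, and in Tle4 lists at E18.5, P1 and P3, with folds of 10.1, 9.12 and 8.16. No late list held it. The late Cux2 promoter peaks lay instead at an upstream TSS, in chr10:79761522-79762040, with folds of 7.20 and 7.09 at P21 and P48, and that region was also listed in Cux2 at E18.5, P1 and P3 (4.71, 5.76 and 4.58) and in Tle4 at E18.5 (6.90). A count of promoter peaks by gene thus merges a TSS listed at early ages only with one listed at both stages in Cux2 CPNs. An intergenic region 74.4 kb downstream (chr10:79838934-79839343) was listed in the 4 early Cux2 lists and in Tle4 CThPNs at P1, with folds from 8.91 to 10.9, and in no late list.

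Dcx (chrX:140290385-140367854, minus strand), the doublecortin gene, had few listed peaks. Its promoter was listed in Cux2 CPNs at E18.5 (fold 7.20) and P21 (7.997), and in no Tle4 list. Within 100 kb, Cux2 lists held 5, 0, 0, 1, 5 and 6 peaks from E18.5 to P48 and Tle4 lists held 1, 0, 1, 0, 0 and 0. Of its 9 regions outside promoters, 8 were seen in Cux2 lists only, as were 67.1% of all regions outside promoters. A region in the last exon, 73.2 kb from the TSS (chrX:140293693-140294345), was listed at P21 and P48 in Cux2 CPNs only, with folds of 11.1 and 10.1. Among its regions, 2 were held by 3 lists, the most for Dcx. An intergenic region 85.5 kb downstream (chrX:140281140-140282121) was listed in Cux2 CPNs at P7, P21 and P48 (9.29, 9.44 and 6.87). An intronic region 10.2 kb downstream of the TSS (chrX:140356555-140357351) was listed in Tle4 CThPNs at E18.5 and P3 (8.83 and 9.96) and in Cux2 CPNs at P48 (6.07). The E18.5 Cux2 list, with 5 of the 6 early Cux2 peaks near Dcx, was also the one with the most interneuron marker promoters listed (5 of 6, against 1, 2 and 0 at P1, P3 and P7), and their part in the Dcx values was not tested.

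Map1b (chr13:100191419-100286557, minus strand, named Mtap1b in the annotation) had a promoter peak in all 8 early lists and in Cux2 CPNs at P48. The Cux2 folds were 9.32, 12.0, 8.90 and 9.16 at the early ages and 6.19 at P48, and the early Tle4 folds were 12.4, 9.94, 9.33 and 7.21. The single late value lay below every early one. The region near Map1b held by the most lists, inside the neighboring gene Mrps27 and 90 kb from a Map1b TSS (chr13:100122788-100123888), was listed in all 12 lists, with folds from 8.97 to 24.5. Regions in the Map1b body at chr13:100210253-100210806 and chr13:100231809-100232288 were listed in both late Cux2 lists and in no other. An intergenic region 38.4 kb upstream (chr13:100324971-100325238) was listed at E18.5 only, in both classes (7.45 in Cux2 and 9.47 in Tle4).

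Both tubulin genes had a promoter peak in all 8 early lists and differed in the late ones. Tubb3 (chr8:125935324-125945915, plus strand) kept a listed promoter peak in 3 of 4 late lists, with folds of 9.11 and 7.997 in Cux2 CPNs and 6.80 in Tle4 CThPNs at P48. Its early folds ran from 8.03 to 11.7 in Cux2 and from 8.16 to 9.44 in Tle4 lists. Late Cux2 folds lay in or just under the early range, and the Tle4 P48 fold lay below it. Immediately past the end of Tubb3, 10.7 kb from its TSS and within the annotated span of Gm20388, a region (chr8:125945983-125946829) was listed in 3 late lists (Cux2 P21, 12.7, Cux2 P48, 12.4, and Tle4 P48, 9.92) and in no early list. It was chosen after its values were seen. The region outside promoters held by the most lists, 1.1 kb downstream of the TSS in the gene body (chr8:125936388-125936946), was listed in 4, with folds from 5.60 to 6.68.

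Tubb2b (chr13:34218877-34222223, minus strand), a beta-tubulin of migrating neurons, had a promoter peak in all 8 early lists and in none of the 4 late ones, as did 0.983% of the genes with a promoter peak in any list. Its folds were 6.35, 6.34, 6.19 and 5.06 in Cux2 CPNs and 5.89, 5.515, 4.69 and 4.68 in Tle4 CThPNs from E18.5 to P7. These folds lay low in their lists, between percentiles 0.0988 and 3.13. By -log10 p the peak ranked from 5569th of 33991 (Cux2 E18.5) to 13272nd of 15186 (Tle4 P7). When each list was cut to its 6538 strongest peaks, 2 of the 8 early lists still held the Tubb2b promoter peak. Tubb2a, the neighboring near-identical tubulin gene, shares sequence with Tubb2b. Bowtie2 at its default settings, as the authors ran it, places a read that matches both equally well at either of them, so the peaks of this pair are uncertain.

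A distal site with the same list pattern lay 83.4 kb downstream of Tubb2b within the gene Bphl (chr13:34138195-34138850). It was listed in all 8 early lists and in no late list, as were 0.42% of all regions outside promoters. Its folds were 12.5, 15.6, 14.6 and 11.4 in Cux2 and 9.16, 9.01, 9.76 and 11.8 in Tle4 lists. Each was above the fold of the promoter peak in the same list. By -log10 p the order varied. At E18.5 the promoter peak was the higher (38.3 against 25.0 in Cux2 and 25.2 against 16.9 in Tle4 lists). At P7 the promoter peak was the lower (22.60 against 22.69 in Cux2 and 20.9 against 22.8 in Tle4 lists). Another region, 33.4 kb downstream (chr13:34187826-34188852), was listed in all 12 lists. Regions at chr13:34142162-34142741, chr13:34226107-34226586 and chr13:34287440-34288068 were listed in both late Cux2 lists and in no other.

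Of the growth cone genes, Gap43 (chr16:42248555-42340764, minus strand) had a listed promoter peak in Cux2 CPNs at E18.5 (fold 5.465), P21 (7.16) and P48 (6.84) and in no Tle4 list. A region 1.4 kb downstream of its first TSS, just outside the promoter window (chr16:42337811-42339361), was listed in all 4 early Tle4 lists and in Cux2 CPNs at E18.5 and P7, with folds from 5.10 to 8.18, and in no late list. An intronic region 6.1 kb from the second TSS (chr16:42269147-42270072) was listed in all early Cux2 lists, with folds of 17.1, 15.3, 11.55 and 8.15, and in Tle4 CThPNs at E18.5, P1 and P3, with folds of 14.0, 13.7 and 10.8. In both classes its fold was lower at each later early age. No late list held it. An intergenic region 85 kb downstream (chr16:42189595-42191183) was listed in 10 lists, all but Tle4 P7 and P21, with folds of 13.2, 11.7, 8.79, 9.18, 7.91 and 7.08 in Cux2 lists from E18.5 to P48.

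Late peaks near Gap43 lay partly at other sites. Of its 14 regions outside promoters, 4 were listed at late ages only (37.0% of all regions outside promoters) and 4 at both stages (23.1%). In all, 4 regions were listed in both late Cux2 lists and in no other list, as were 16.3% of all regions outside promoters. The one with the highest folds (16.9 at P21 and 12.2 at P48) lay 90.8 kb upstream (chr16:42431568-42432170). That late site, chosen after its values were seen, is shown with the early Gap43 site for their opposite lists, and with the early site near Tubb2b. Capitals are as above.
Gap43 6.1 kb downstream (chr16:42269425-42269724, plus strand): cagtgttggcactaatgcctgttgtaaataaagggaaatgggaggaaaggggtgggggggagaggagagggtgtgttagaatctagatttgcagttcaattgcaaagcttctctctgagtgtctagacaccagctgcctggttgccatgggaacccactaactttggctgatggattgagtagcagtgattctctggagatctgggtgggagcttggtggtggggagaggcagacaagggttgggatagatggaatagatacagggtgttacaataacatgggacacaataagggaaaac
Gap43 90.8 kb upstream (chr16:42431690-42431989, plus strand): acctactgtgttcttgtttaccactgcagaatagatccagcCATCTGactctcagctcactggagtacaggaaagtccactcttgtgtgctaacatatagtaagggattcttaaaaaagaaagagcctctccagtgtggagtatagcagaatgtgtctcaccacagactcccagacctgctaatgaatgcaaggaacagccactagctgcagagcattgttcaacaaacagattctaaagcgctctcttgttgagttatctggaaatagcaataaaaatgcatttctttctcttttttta
Tubb2b 83.4 kb downstream (chr13:34138307-34138606, plus strand): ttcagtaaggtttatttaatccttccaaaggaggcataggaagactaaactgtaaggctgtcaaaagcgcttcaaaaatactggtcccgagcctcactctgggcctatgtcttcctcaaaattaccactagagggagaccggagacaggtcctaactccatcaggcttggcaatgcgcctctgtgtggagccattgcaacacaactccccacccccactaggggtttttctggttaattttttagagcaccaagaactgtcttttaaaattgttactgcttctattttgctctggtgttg
The late Gap43 window held CAGATG once, and the early Gap43 and Tubb2b windows held none of the marked motifs.

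**Figure D3:**
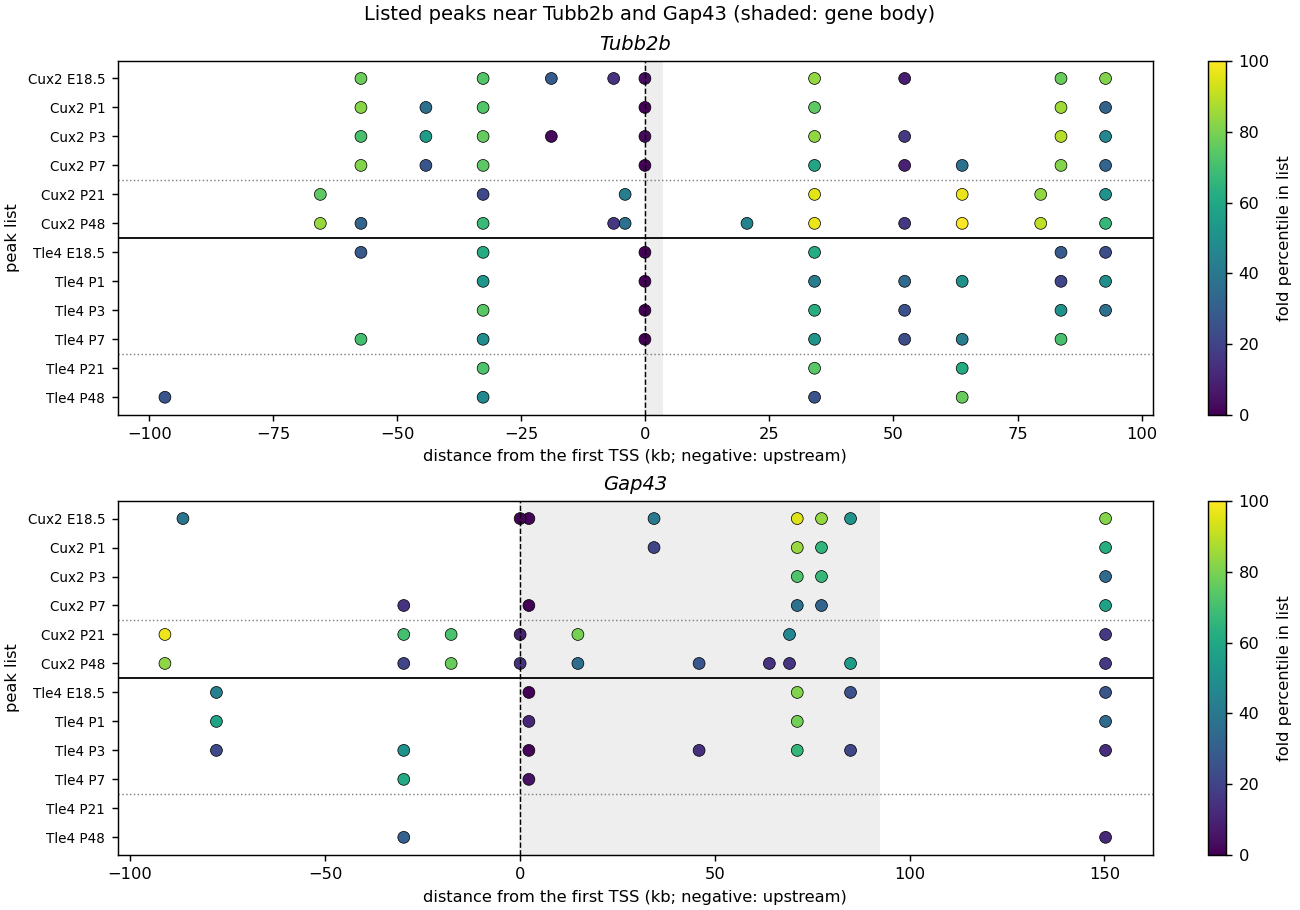
Each point is a listed peak near Tubb2b or Gap43, placed by its distance from the first TSS in kb (horizontal axis, negative upstream) and its peak list (vertical axis), and colored by the percentile of its fold within that list. The points at the Tubb2b TSS and 83.4 kb downstream stop at P7 in both classes, and the Gap43 points of late Cux2 lists lie partly at other distances than those of early lists.

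Dpysl3 had the most uniform pattern over its surroundings. A promoter peak was listed in all 8 early lists and in both late Cux2 lists, at an internal TSS, with folds of 7.56, 7.74, 7.36, 5.35, 5.99 and 7.45 in Cux2 and 9.39, 7.34, 6.12 and 6.11 in early Tle4 lists. The first TSS had a peak in Cux2 CPNs at E18.5, P1 and P7 only (8.47, 10.7 and 7.27). Within 100 kb the peaks numbered 5, 5, 6 and 8 in early and 2 and 2 in late Cux2 lists. They numbered 3, 3, 2 and 3 in early and 0 and 0 in late Tle4 lists. In each class every late list held fewer than every early list. An intergenic region 85 kb upstream was listed in all 8 early lists and in Cux2 CPNs at P21, with folds from 7.11 to 15.9. Among its regions outside promoters, 5 of 7 were listed at early ages only (39.9% of all regions outside promoters) and none at late ages only (37.0%).

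The stage comparison asked, for all genes at once, whether late and early lists differed. The statistic was the mean over the classes of late minus early, and p came from an exact two-sided permutation test over every arrangement of the stage labels inside each class, with a smallest possible p of 0.00444, adjusted by the Benjamini-Hochberg method over all genes tested. No gene of any kind passed an adjusted p of 0.05 (0.0% called in every comparison here), and the smallest adjusted p was 0.300 for promoters, 0.0556 for peaks within 100 kb and 0.0525 for gene bodies. At an unadjusted p under 0.05 the exact test returned 977, 5292 and 3379 genes.

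For promoters, 3 members were below the unadjusted 0.05 with a lower late share, against 7.61% of genes, and 0 with a higher one, against 0.454%. They were Tubb2b (difference in share of lists -1, exact p = 0.00444, adjusted p = 0.300), Sox12 (-0.875, exact p = 0.0133) and Map1b (-0.75, exact p = 0.0222). The difference was -0.5 for Sox4 and Dpysl3 and 0 for Sox11. Its median was -0.438 over the 10 members, all of which had a promoter peak in some list, and -0.125 over all genes tested. The calls depended on list length. In lists of equal length all 3 members were above 0.05, with differences of -0.25 for Tubb2b (exact p = 0.467), -0.125 for Sox12 (exact p = 1) and -0.625 for Map1b (exact p = 0.0933). There Sox4 was the 1 member below it (-1, exact p = 0.00444, adjusted p = 0.0956), and Sox11 had a difference of -0.5 (exact p = 0.24). The Map1b call was also lost without the Cux2 P21, Tle4 P21 or Tle4 P48 list, at an exact p of 0.0667 each.

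Numbers of peaks near a gene were divided by list length, as peaks per 10000 listed. Within 100 kb, 2 members were below 0.05 with fewer late peaks (14.3% of genes) and 0 with more (11.3%). For Dpysl3 the Cux2 level was 2.13 ± 0.516 (SD over 4 early ages) and 0.486 late, and the Tle4 level 1.48 ± 0.446 and 0 (difference -1.56, exact p = 0.00444, adjusted p = 0.0556). In neither class did its late and early levels overlap, which held for 5.64% of genes. For Sox12 the Cux2 level was 2.86 ± 0.570 early and 1.08 late, and the Tle4 level 2.90 ± 0.692 and 2.37 (difference -1.15, exact p = 0.0311, adjusted p = 0.150). The early and late Tle4 values of Sox12 overlapped. In lists of equal length neither gene was below 0.05, with a difference of -1.72 for Dpysl3 (exact p = 0.0844) and 0 for Sox12 (exact p = 1), and Sox4 was the 1 member below it (-1.53, exact p = 0.0311, adjusted p = 0.175). Sox12 was also above it without any one of the Cux2 E18.5, P21 and P48 and Tle4 P1, P7 and P48 lists (exact p from 0.0533 to 0.187).

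The median difference over the members was -0.355 peaks per 10000, against -0.0121 over all 20651 genes tested. Differences for Sox4, Sox11, Map1b, Tubb3 and Tubb2b lay between -0.600 and 0.547 and took the other sign under at least 1 alternative window, threshold or scaling. The plot of nearby peaks by age shows how the single lists scatter.

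**Figure D4:**
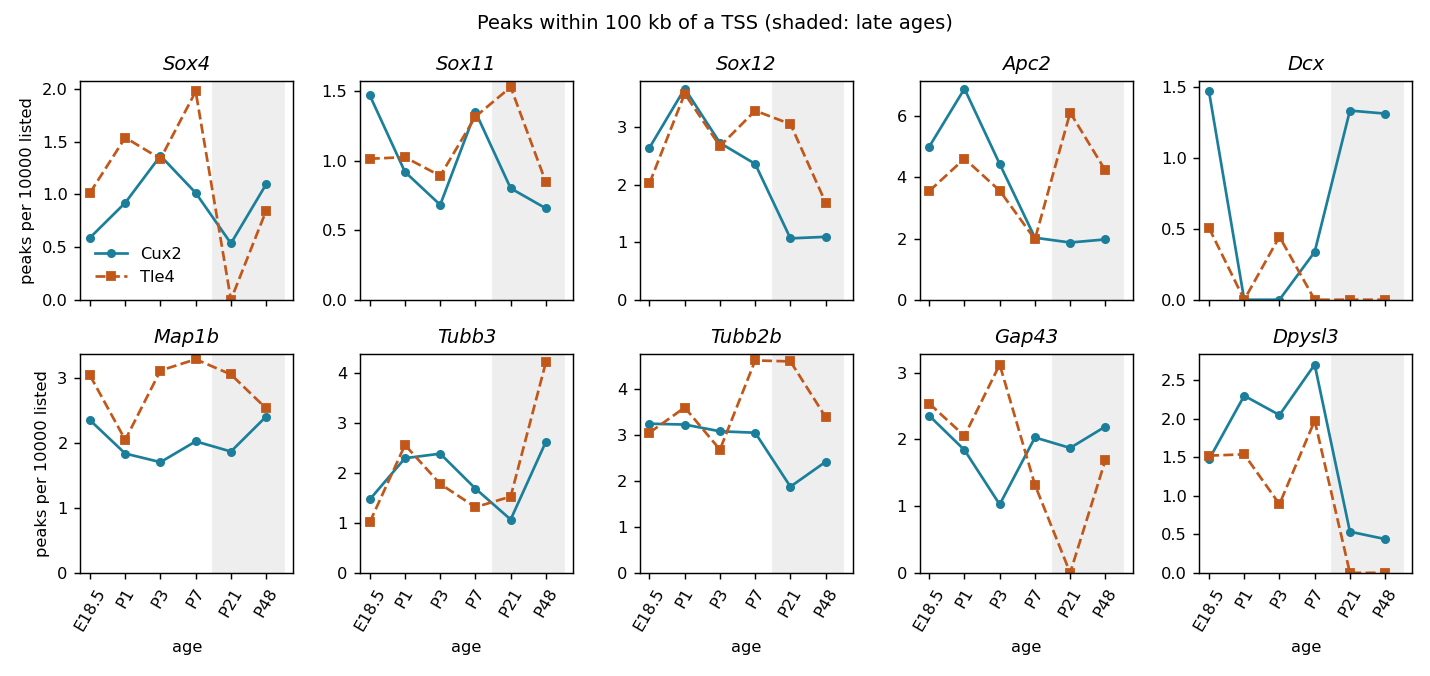
Peaks within 100 kb of a TSS per 10000 listed peaks (vertical axis, from 0, its own scale in each panel) against age (horizontal axis) for the 10 genes, with Cux2 CPNs as circles and solid lines, Tle4 CThPNs as squares and dashed lines, and late ages shaded. Each point is 1 list and has no error. Dpysl3 drops from 0.891 or more at early ages to at most 0.534 at late ages in both classes, and Dcx is near the top of its range at E18.5, P21 and P48 in Cux2 CPNs only.

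In gene bodies, 5 members were below 0.05 with fewer late peaks (15.5% of genes) and 0 with more (8.2%). Dpysl3 had a difference of -0.973 peaks per 10000, Tubb2b of -0.445 and Sox4 of -0.323, each with an exact p of 0.00444 and an adjusted p of 0.0525 over 14284 genes. Late and early levels of these 3 did not overlap in either class, which held for 6.85% of genes. No member had late levels above every early level in both classes, in gene bodies (1.96% of genes) or within 100 kb (3.36%). Apc2 (-0.478, exact p = 0.0356) and Sox12 (-0.418, exact p = 0.0133) followed. For Sox4, Tubb2b and Apc2 no region in the gene body lay outside promoters. Their body peaks are thus promoter peaks counted again, and not a separate result. For Sox4 each Cux2 list held 1 body peak at every age, so its Cux2 difference of -0.115 came from list length alone. With peaks as counted, Sox4 had an exact p of 0.0667. In lists of equal length the calls of Dpysl3 (exact p = 0.236), Tubb2b (0.467), Apc2 (0.08) and Sox12 (0.467) were lost, that of Sox4 remained (-1.53, exact p = 0.00444), and Gap43 was below 0.05 (-1.34, exact p = 0.0133). Apc2 and Sox12 were above 0.05 without the Tle4 P21 or the Tle4 P48 list (exact p = 0.0667), and Apc2 also without the Cux2 P21 or P48 list.

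The difference between the class changes was compared with its values under the same arrangements. These arrangements assume no stage change in either class, so a small p does not by itself show that the changes differ between classes. Of all genes, 63.8% had a Cux2 change below the Tle4 change, with a median difference of -0.347 peaks per 10000. Apc2 was the 1 member below 0.05 (Cux2 change below Tle4 change, as for 20.2% of genes; 0 members and 4.8% of genes lay on the other side), with a difference of -4.41 peaks per 10000 (exact p = 0.0444, adjusted p = 0.186). Its Cux2 levels were 5.00, 6.90, 4.44 and 2.03 early and 1.87 and 1.97 late, and its Tle4 levels 3.55, 4.61, 3.56 and 1.98 early and 6.12 and 4.22 late. Late levels were thus below the early ones in Cux2 and at or above most of them in Tle4 CThPNs. Of the 22 regions near Apc2, 12 were promoters of other genes, and 4 and 5 peaks made up the late Tle4 values. In equal-length lists, and with peaks as counted, 0 members were below 0.05 in this direction.

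At matched ages, the classes were compared by an exact sign-flip permutation test over 6 ages, with a smallest possible p of 0.0312. Map1b was the 1 member below 0.05 with a lower Cux2 level (8.94% of genes), at 2.03 against 2.85 peaks per 10000 and lower in 6 of 6 ages (exact p = 0.0312, adjusted p = 0.210). As counted, without division by list length, Map1b had more peaks in Cux2 than in Tle4 lists, by 2.33 on average, so its direction follows the scaling. No member was below 0.05 with a higher Cux2 level (5.9% of genes).

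Near the 10 genes lay 134 of the 85867 regions of the series, and 44 of these were promoters. Of the 90 outside promoters, 38 were listed at early ages only (42.2%, against 39.9% of all regions outside promoters), 27 at late ages only (30%, against 37.0%) and 25 at both (27.8%, against 23.1%). Regions listed at 2 or more early ages in both classes, with no late list, numbered 6, or 6.67% against 2.44%, and they lay near Gap43 (2), Sox12 (2), Sox4 and Tubb2b. In all 12 lists there were 3, or 3.33% against 0.833%, near Sox12, Map1b and Tubb2b. These shares are descriptions of neighboring regions, which are not replicates.

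Regions of both late Cux2 lists and no other numbered 12 (13.3%, against 16.3%), with 4 near Gap43, 3 near Tubb2b, 2 each near Dcx and Map1b, and 1 near Sox12. Sox4, Sox11, Apc2, Tubb3 and Dpysl3 had none of this kind. Regions of Cux2 lists only made up 54 of 90 (60%, against 67.1%), and those of Tle4 lists only 6 of 90 (6.67%, against 10.4%). The bar plot of regions by stage gives the split for each gene.

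**Figure D5:**
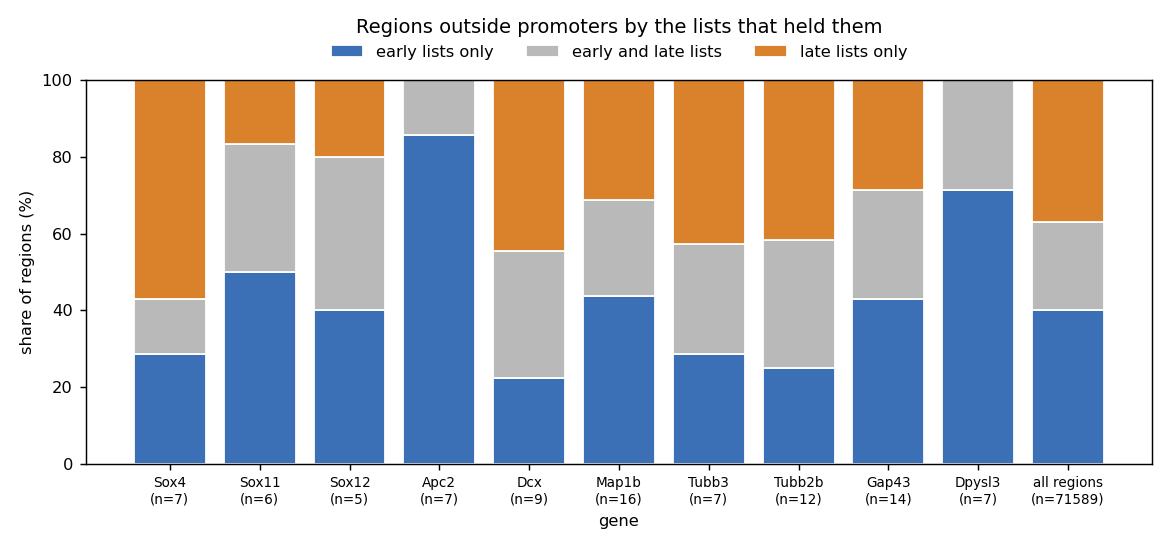
Share of regions outside promoters (vertical axis, in percent) within 100 kb of each gene that were listed at early ages only (blue), at both stages (grey) or at late ages only (orange), with the number of regions under each bar and all 71589 such regions at the right. Apc2 and Dpysl3 have no late-only region, and Sox4 has 4 of 7.

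In sequence, the 16 promoter regions of the members had a median GC content of 56.2%, against 56.6% for all 14278 regions near a TSS, and the 90 regions outside promoters had 46.1%, against 44.0%. In the central 300 bases, the Sox core ACAANG was found in 56.2% of the members' promoter regions and in 32.9% of all, and CCAAT in 62.5% and 39.6%. GGGCGG was found in 31.2% of the members' promoter regions against 52.8%, and outside promoters in 15.6% against 5.68%. The Egr site GCGTGGGCG was in none of the windows at the members' own promoters or outside promoters. It was in 0.967% of all regions near a TSS and 0.0810% of all outside promoters. A region near Sox12 at the promoter of another gene, Zcchc3, held it. Neighboring regions share base composition, and no test was made on these shares.

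Other genes of the same biology gave mixed counts. Of 24 further genes of the immature cytoskeleton and growth cone, 18 had a promoter peak in a larger share of early than late lists (59.1% of genes). A larger share of late lists held one for 2 (12.6% of genes), and 4 had equal shares. For promoters, 0 were below an unadjusted exact permutation p of 0.05 (7.61% of genes with a lower and 0.454% with a higher late share). Within 100 kb, 5 were below that p with fewer late peaks (14.3% of genes) and 2 with more (11.3% of genes). Those with fewer were Apc, Kif5c, Stmn3, L1cam and Dpysl2, with differences from -1.78 to -0.714 peaks per 10000. Those with more were Ncam1 (1.501) and Stmn2 (0.938). None reached an adjusted p of 0.05. Apc, the relative of Apc2 that regulates microtubule ends, had 2.12 peaks per 10000 early and 0.341 late (exact p = 0.00444, adjusted p = 0.0556). In gene bodies, 4 of the 24 were below an unadjusted exact permutation p of 0.05 with fewer late peaks (15.5% of genes). They were Apc, Kif5c, Stmn1 and Stmn2. Ncam1, Mapt and Dpysl4 were the 3 with more (8.2% of genes). Stmn2 thus had fewer late peaks in its body (-0.423, exact p = 0.00444) and more within 100 kb.

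Of 8 genes of the mature cytoskeleton, the neurofilament genes Nefl and Nefm had more late peaks within 100 kb (0.0790 early and 1.99 late, and 0.433 and 2.24) and Map6 fewer (3.18 and 2.25), each at the smallest exact p of 0.00444. At an unadjusted exact permutation p under 0.05 there were thus 2 with more (11.3% of genes) and 1 with fewer (14.3% of genes). Nefl and Nefm had no promoter or gene-body peak in any list. How far the 100 kb windows of Nefl and Nefm hold the same peaks was not tested, so they may not be separate results. The neurofilament gene Nefh had 1.86 early and 1.77 late within 100 kb (exact p = 0.724). In gene bodies Nefh (-0.308, exact p = 0.0133) and Map6 (-0.760, exact p = 0.00889) had fewer late peaks (15.5% of genes), and 0 of the list had more (8.2% of genes). Of 8 other Sox genes, 7 were found by symbol, and within 100 kb Sox8 had 0.539 peaks per 10000 early and 2.44 late (exact p = 0.00444, adjusted p = 0.0556). It was the 1 of these Sox genes called with more late peaks (11.3% of genes), and 0 had fewer (14.3% of genes). The median difference within 100 kb was -0.224 for the immature list, 0.536 for the mature list and 0.0180 for the Sox list.

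Promoter peaks of cell type markers differed between the classes in part, and the Cux2 list was the longer at every age. The part of list length in this difference was not tested. The pyramidal gene Neurod6 had one in 6 Cux2 and 5 Tle4 lists, Neurod2 in 4 Cux2 and no Tle4 lists, Slc17a7 in 1 Cux2 list and Slc17a6 in none. The callosal genes Cux2 and Lhx2 had one in 4 and Cux1 in 2 Cux2 lists, and in no Tle4 list. Of the corticothalamic genes, Tbr1 had one in 6 Tle4 and 2 Cux2 lists, Tle4 in 6 of each, Foxp2 in 3 of each, Bcl11b in 1 Tle4 and 4 Cux2 lists, and Fezf2 in none. Of 6 interneuron markers, 0 to 5 had a promoter peak in an early list and 0 in any late list, all of them in Cux2 lists, and Gad1 had none. Among 4 progenitor markers, 0 to 2 had one in early lists and 0 in late lists (Sox2 and Pax6, in 2 Cux2 lists each). Of 4 astrocyte markers 0 to 2 were listed at either stage. Gfap was listed in 5 Cux2 and no Tle4 lists, Aldh1l1 in 2 Cux2 and 1 Tle4 lists and Slc1a3 in 1 Cux2 list. Of 6 oligodendrocyte lineage and of 4 microglia markers 0 to 1 were listed at early ages and 0 late, and of 3 endothelial markers none. Interneuron and progenitor markers with a promoter peak had it in a larger share of early lists, as did 7 members and 59.1% of genes. In Cux2 lists from E18.5 to P7, 5, 1, 2 and 0 interneuron and 2, 1, 1 and 0 progenitor markers were listed. Without the Cux2 E18.5 list, within 100 kb, Sox12 had an exact p of 0.0533 and Sox4 of 0.0333. The part of these markers in the results was not tested.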

How the data were processed

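Chromatin accessibility was measured by ATAC-seq in 24 libraries, with groups read from the labels of the samples. According to the study's methods and processing notes, the authors aligned reads to mm9 with Bowtie2, used Picard to remove duplicates and MACS2 to call peaks, and filtered these for reproducibility across the 2 replicates of a group. A shift of read positions for the transposase is not given in the sources used here. The 12 deposited lists give, for each peak of pooled replicates, a position, a score, the fold enrichment (a ratio to background), the −log10 p-value and the summit, as well as a q-value not used here. They hold no read counts and no values per replicate, so the depth per list is unknown, no counting interval can be given and the list is the unit. A list becomes longer with depth and signal to background as well as with accessibility.

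Coordinates are 1-based NCBIM37, with GENCODE vM1 genes. The annotation held 2 genes named Sox4, and the longest protein-coding one was used. Of 292994 peaks, 292934 lay on chromosomes 1 to 19, X or Y and were used, and 60 mitochondrial peaks were left out. Peaks of all lists that overlapped by 1 bp were merged into regions, and a region's distance is to the nearest annotated TSS of the member. Windows were 1 kb for promoters and 100 kb for nearby peaks, and peak numbers were given per 10000 listed. Exact permutation tests used every arrangement of stage labels or 64 sign flips, with Benjamini-Hochberg adjustment over all genes with a peak in any list (Python 3.11.15, numpy 2.4.6, pandas 2.3.3), and were tested on simulated data. The 10 members and the gene, marker and motif lists were chosen with earlier results of these data known. A pyramidal marker gene is not reported here. All 10 members are named; of other lists, the genes under an unadjusted p of 0.05 are. Regions were named by a rule, as the one outside promoters held by most early lists of both classes and no late list and the one held by most lists of all. All other regions named were chosen after their values were seen. Sequences were read from NCBIM37 or from RefSeq, none overlapping an annotated exon by more than 14 bases. Alternatives were lists of equal length (6538 peaks), a common −log10 p threshold (22.0), summits in place of overlaps, windows of 500 bp and 50 kb, peaks as counted, peaks outside promoters, genes in at least 3 lists, and each list left out in turn.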

Additional observations from a re-analysis of the deposited data

Results flagged for a closer look

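In groups of 4 early lists, 40 sets of member values were examined for a value far from the others, and 2 were found. The cutoff flags about 1 in 20 sets of normally distributed values. These sets are scaled counts of few peaks with ties, so that rate does not apply to them. The gene-body level of Dcx in the early Cux2 lists was 1.47 peaks per 10000 at E18.5 (5 peaks) and 0 at the other 3 ages. The gene-body level of Map1b in the early Tle4 lists was 1.32 at P7 (2 peaks) and 0.446 to 0.513 at the others (1 peak each).

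The stage change of Apc2 within 100 kb differed between the classes by -4.41 peaks per 10000 (Cux2 minus Tle4, exact permutation p = 0.0444), and the adjusted p over all genes was 0.186.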

How the results depend on the processing

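No gene passed an adjusted p of 0.05 under any alternative. Counts of members at an unadjusted exact permutation p under 0.05 were 3, 2 and 5 with fewer late peaks at promoters, within 100 kb and in gene bodies. The promoter and gene-body counts share peaks. In lists of equal length they were 1, 1 and 2, and of the members called before only Sox4 in gene bodies was among them (the others were Sox4 at promoters and within 100 kb, and Gap43 in gene bodies). A 50 kb window gave 1 within 100 kb, and peaks as counted gave 3 in gene bodies. With 1 list left out they ran from 1 to 2 within 100 kb (1 without the Cux2 P21, Tle4 P1, Tle4 P7 or Tle4 P48 list) and from 3 to 6 in gene bodies (3 without Tle4 P21 or Tle4 P48).

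For the difference between classes, the 1 member with a lower Cux2 change became 0 in equal-length lists and as counted, and 2 under the common threshold and at 50 kb. It ran from 0 to 3 with 1 list left out, with 0 without any one of the Cux2 E18.5, P1, P3, P21 and P48 and the Tle4 E18.5, P3 and P21 lists, and 3 without Tle4 P48. The 0 with a higher Cux2 change became 1 under the common threshold and at 50 kb and 2 as counted, and ran from 0 to 1 (1 without Cux2 E18.5). In the class comparison, the 1 lower in Cux2 became 0 under all 4 of equal length, common threshold, 50 kb and as counted, and the 0 higher became 1 at 50 kb and 3 as counted. With 1 age left out that test cannot reach 0.05.

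Signs turned for these late minus early differences, in peaks per 10000 unless counted. In equal-length lists they were -0.765 for Sox11 and -0.956 for Tubb3 in the body, and -0.191 for Tubb3 and 0.191 for Tubb2b within 100 kb. At 50 kb they were -0.385 for Map1b, 0.0792 for Sox11, 0.00981 for Sox4 and -0.133 for Tubb3. The common threshold gave 0.285 for the Dcx body and 0.319 for Sox11 within 100 kb, counted peaks gave 0.375 and 0.25 for the Dcx and Map1b bodies, summits gave 0.116 for the Map1b body, and leaving out promoters gave 0.472 for Tubb2b. The Map1b class difference became 0.255 in equal-length lists, 0.0953 at 50 kb and 2.33 as counted. With 1 list left out, differences ran from -0.125 to 0.375 for the Dcx promoter, within 100 kb from -0.0981 to 0.174 for Map1b, -0.297 to 0.0454 for Sox11, -0.936 to 0.0113 for Apc2, -0.126 to 1.22 for Tubb3 and -0.550 to 0.0541 for Tubb2b, and in the body from -0.0663 to 0.179 for Dcx and -0.369 to 0.476 for Tubb3. The causes were not tested. No paired analysis was possible because the lists pool the replicates, so replicate numbers could not be paired (ages were matched between classes). Depth per list is not in the files, and a peak that is not listed may lie under a list's threshold.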
